A study of Mus musculus with 4 samples.

Results

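The 10 genes described here mark the lining cells of blood and lymphatic vessels in the injured mouse pancreas: Plvap, Emcn, Kdr, Tek, Pecam1, Cdh5, Esam, Cldn5, Vwf and Lyve1. They were chosen by symbol, as array rows whose platform annotation gave exactly 1 symbol, with the brightest row kept per gene; all 10 were found, each with a single row, among 22180 genes. Total RNA of whole pancreas was hybridised to Affymetrix arrays, 1 per mouse, from Ifrd1 null mice (n = 2) and wild-type mice (n = 2). All mice were 8 weeks old, and all had received cerulein, a cholecystokinin analog that over-stimulates acinar cells, at 100 µg/kg in 6 intraperitoneal injections a day on alternate days, with tissue taken on day 5. Both genotypes were thus injured, uninjured pancreas is not analysed here, and the sources used here do not state how the null allele was made, nor strain and litter. The labels call the arrays biological replicates, and whether the mice were handled separately is not stated beyond that.

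Endothelial cells line every vessel and are held together by adherens and tight junctions, built by VE-cadherin and claudins among others. Their growth and survival depend on vascular endothelial growth factors acting through Kdr and its relatives, and their quiescence on angiopoietins acting through Tek. Capillaries of the pancreas are fenestrated, which lets hormones and fluid pass, and the fenestrae are closed by diaphragms made of the Plvap protein. In acute pancreatitis these vessels become leaky and let leukocytes in.

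Ifrd1, a transcriptional co-regulator, is the gene that the labels give as knocked out (KO). It was at 6.99 and 7.09 in the Ifrd1 null arrays, against 9.04 and 9.07 in the wild-type arrays (log2). All 4 values lay above the median of their array, those of the null arrays included. Xist, expressed from the inactive X chromosome of females, was at 10.2 and 9.58 in the null arrays, against 2.56 and 3.54 in the wild-type arrays, and the Y-linked Uty at 2.25 and 2.36 against 6.41 and 6.40, so genotype and sex, as these genes read it, cannot be told apart. Markers of acinar cells, the bulk of the pancreas, lay far above the array medians, with list means of 11.1 and 11.6 in null and 11.4 and 11.4 in wild-type arrays (10 of 14 markers measured). Of all genes 52.6% had a negative difference (Ifrd1 null minus wild type), and of the genes above the median level 67.3%. With quantile normalization, cyclic loess and median centring, genes above the median level gave 55.8%, 53.7% and 76.7%. Counts of lower genes below are to be read beside those shares. In bulk tissue, fewer cells of a type and less RNA per cell cannot be told apart.

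Most of the endothelial genes were slightly lower in the Ifrd1 null pancreas, and none passed the test. A negative difference was found for 8 of the 10, beside 52.6% of all genes and 67.3% of genes above the median level. It was found for 6 with quantile normalization and for 7 with cyclic loess, where genes above the median level gave 55.8% and 53.7%. The median difference was -0.13 on the log2 scale, against -0.01 over all genes and -0.07 over genes above the median level. Both null arrays lay below both wild-type arrays for 6 of the 10 (Plvap, Emcn, Kdr, Tek, Pecam1 and Esam). That held for 19.7% of all genes and 29.1% of genes above the median level. No gene of the 10 showed the opposite (0 genes, against 16.1% of all genes and 8.82% of genes above the median level). Such counts of separated groups, here and below, were taken on the deposited scale only. After Benjamini-Hochberg adjustment over all genes 0 of the 10 passed in limma at 0.05. Over all genes 0.00451% did, which is Uty alone, with a limma adjusted p of 0.0206. Ifrd1 itself, 4.05-fold lower, missed that threshold with a limma adjusted p of 0.138. At unadjusted p under 0.05 in limma there were 2 of the 10, Plvap and Emcn, both lower (3.63% of all genes and 5.41% of genes above the median level). By array, the median of the 10 against the wild-type mean was -0.11 in Ifrd1 null 1 and -0.20 in Ifrd1 null 2. Genes above the median level gave -0.07 on each of these arrays. The median difference of the 10 was -0.20 with Ifrd1 null 1 left out and -0.21 with wild type 1 left out. It was -0.11 with Ifrd1 null 2 left out and -0.13 with wild type 2 left out.

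**Figure D1:**
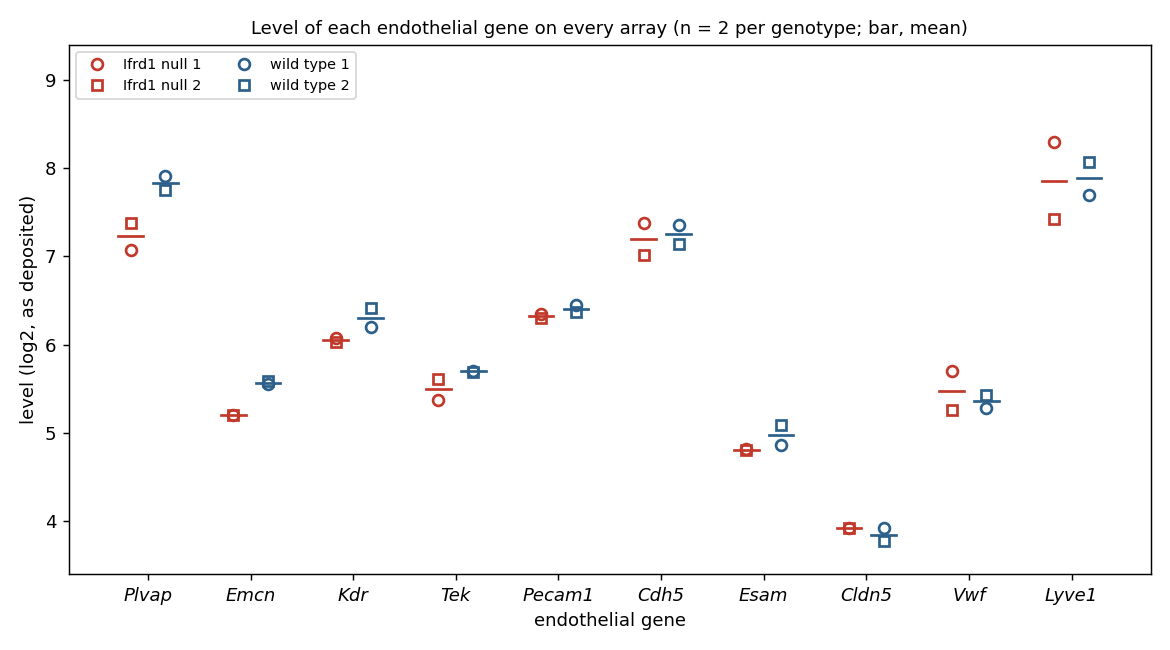
Deposited log2 level (vertical axis) of the 10 endothelial genes (horizontal axis) on every array, with Ifrd1 null in red to the left of wild type in blue, circles for replicate 1, squares for replicate 2 and a bar at each group mean (n = 2). Plvap and Emcn show the widest gaps between genotypes, the 2 null values of Lyve1 span 0.87, and levels of different genes are not comparable with each other.

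The lowest values against wild type were those of the capillary genes. Plvap, whose protein forms the diaphragms of fenestrae and caveolae, was at 7.07 and 7.38 in the Ifrd1 null arrays, against 7.91 and 7.75 in the wild-type arrays. Both null arrays were low, and the gap between the groups, 0.37, was wider than the spread within either genotype, 0.31 in null and 0.16 in wild type. The difference was -0.60 ± 0.15 (log2, SE), or 1.52-fold lower, with a 95% interval of -1.01 to -0.19 and a limma adjusted p of 0.721. Leaving out 1 array at a time gave -0.76 to -0.45, and over all alternatives the limma adjusted p ran from 0.473 to 0.891.

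Emcn encodes endomucin, a sialomucin on the surface of capillary and venous endothelium. It stood at 5.21 and 5.21 in the null arrays, against 5.55 and 5.59 in the wild-type arrays, so the groups were 0.34 apart while arrays of 1 genotype differed by 0.04 at most. The difference was -0.36 ± 0.10 (SE), or 1.29-fold lower, with a 95% interval of -0.63 to -0.10 and a limma adjusted p of 0.721. It kept between -0.41 and -0.34 under every alternative tried. Plvap and Emcn were the only ones of the 10 whose 95% interval excluded 0, before any adjustment for the number of genes.

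Other genes of capillaries and of caveolae had a median near 0. Of the 9 further measured members of a capillary list, 6 had a negative difference, a share close to the 67.3% of genes above the median level. With quantile normalization and with cyclic loess it was 4, where genes above the median level gave 55.8% and 53.7%. The groups overlapped for all 9, as they did for 64.2% of all genes. The median was -0.02 (0.03 and 0.04 with those scalings). Car4, a carbonic anhydrase of capillaries, was at 4.11 and 4.78 in null arrays, against 6.05 and 4.15 in wild-type arrays, with wild type 1 the high array. Cd36, a fatty acid transporter of capillaries, adipocytes and macrophages, was at 7.36 and 6.42 in null arrays, against 7.14 and 7.27 in wild-type arrays. Cav1, the main protein of caveolae, was at 6.59 and 5.90 in null arrays, against 6.29 and 6.25 in wild-type arrays. Cavin2, a caveolar coat protein, was at 7.18 and 7.13 in null arrays, against 7.15 and 7.11 in wild-type arrays. These 4 were named after their values were seen, as capillary and caveolar genes to set beside Plvap, and in each the groups overlapped.

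The bases upstream of the start site are shown for Emcn, which has the widest gap among the 4 of the 10 genes (Cldn5, Emcn, Kdr and Tek) that matched the RefSeq promoter sequences of GRCm38.p6, and for Kdr and Cldn5, chosen after their values were seen to set beside it. Each run holds the 250 bases before the start, read 5′ to 3′ on the gene's strand. Capitals mark the letters AGGAAG on either strand, 1 form of the sites for ETS factors such as Erg and Fli1, which drive endothelial genes. The variant that starts with C (CGGAAG) was searched as well and overlaps no other motif. Other forms of ETS sites were not searched.
Emcn, chr3:137340828-137341077, plus strand: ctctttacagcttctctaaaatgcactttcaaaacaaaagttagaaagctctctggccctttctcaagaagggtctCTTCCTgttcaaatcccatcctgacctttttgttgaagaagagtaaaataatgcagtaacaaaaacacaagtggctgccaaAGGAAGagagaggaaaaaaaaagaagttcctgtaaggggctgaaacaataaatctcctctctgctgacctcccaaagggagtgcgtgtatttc
Kdr, chr5:75978456-75978705, minus strand: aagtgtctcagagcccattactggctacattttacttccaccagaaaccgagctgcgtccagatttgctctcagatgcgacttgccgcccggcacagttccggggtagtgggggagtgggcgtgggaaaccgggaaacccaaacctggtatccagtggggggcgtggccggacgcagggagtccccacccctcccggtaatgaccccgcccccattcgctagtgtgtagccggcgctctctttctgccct
Cldn5, chr16:18776597-18776846, plus strand: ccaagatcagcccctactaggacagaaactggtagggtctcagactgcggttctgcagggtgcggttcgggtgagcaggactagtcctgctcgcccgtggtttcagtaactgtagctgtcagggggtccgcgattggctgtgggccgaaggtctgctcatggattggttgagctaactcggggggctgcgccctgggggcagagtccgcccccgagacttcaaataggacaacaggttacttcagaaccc
Emcn held 2 ETS matches, 1 on the opposite strand 174 to 169 bases before the start and 1 on the gene's own strand 93 to 88 bases before it. Kdr, Tek and Cldn5 had 0 matches to these 2 forms, which leaves other forms of ETS sites in them unexamined. Of 32851 promoter windows of the same length, 39.2% held at least 1 match and 11.3% at least 2. The letters AGATAA, searched on both strands as 1 form of the sites for Gata2 and its relatives, were found in 0 of the 4 and in 9.99% of all windows. The Emcn window was the poorest in G and C, at 40.8%, against 61.6% for Kdr, 59.6% for Cldn5, 51.2% for Tek and a median of 52.4% over all windows.

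The receptor kinases Kdr and Tek came next. Kdr, the main signalling receptor for VEGF-A, was at 6.08 and 6.03 in the null arrays, against 6.20 and 6.41 in the wild-type arrays. The groups did not overlap, but they lay only 0.12 apart, less than the 0.21 between the wild-type arrays. The difference was -0.25 ± 0.12 (log2, SE), with a 95% interval of -0.58 to 0.08 and a limma adjusted p of 0.742.

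Tek, the angiopoietin receptor Tie2, was at 5.38 and 5.61 in the null arrays, against 5.70 and 5.70 in the wild-type arrays. Ifrd1 null 1 was the low array, and Ifrd1 null 2 lay 0.09 below wild type. The difference was -0.20 ± 0.13 (SE; limma adjusted p = 0.761), and it was -0.09 without Ifrd1 null 1 and -0.32 without Ifrd1 null 2. A 2-fold difference lay outside the 95% interval of both receptors, since the interval of Tek reached -0.54.

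Vegfa, Vegfb and Nrp1 of the VEGF system lay below wild type as Kdr did. Of the 10 VEGF ligands and receptors measured, Kdr among them, 7 had a negative difference (8 with arrays centred on their medians), near the 67.3% of genes above the median level, and 4 had null arrays below wild type, where all genes gave 19.7% and genes above the median level 29.1%. The median was -0.15, with -0.24 without Ifrd1 null 1 and -0.16 without Ifrd1 null 2. Without wild type 1 it was -0.22, and without wild type 2 it was -0.105. Vegfa, the hypoxia-induced ligand of Flt1 and Kdr, was at 7.82 and 8.13 in null arrays, against 8.34 and 8.25 in wild-type arrays. Vegfb, a ligand of Flt1, was at 7.26 and 7.37 in null arrays, against 7.77 and 7.57 in wild-type arrays, a difference of -0.35 ± 0.13 (SE; limma adjusted p = 0.721). Nrp1, the co-receptor that presents VEGF-A to Kdr, was at 8.89 and 8.93 in null arrays, against 9.03 and 9.28 in wild-type arrays. For these 3 genes the groups did not overlap, and 0 of the 10 passed limma over all genes.

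Lymphatic growth factors did not share that pattern. Vegfc, a ligand of Flt4, was at 5.67 and 5.05 in null arrays, against 5.46 and 5.21 in wild-type arrays, and Vegfd, another, at 7.14 and 6.58 against 6.69 and 6.71 (both named after their values were seen). In both, Ifrd1 null 1 was the highest array and Ifrd1 null 2 the lowest.

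Among the 5 angiopoietin and Tie genes, 3 had a negative difference and 0 passed. Angpt2, the context-dependent antagonist of Tek that activated endothelium releases, was at 3.63 and 2.97 in null arrays, against 2.49 and 3.03 in wild-type arrays, below the median of every array. Angpt4 was at 3.97 and 3.998 in null arrays, against 3.72 and 3.83 in wild-type arrays, and likewise below the median of every array, where signal above background is not shown. Angpt1, the agonist of Tek from mural cells (named after its values were seen), was at 4.62 and 5.23 in null arrays, against 5.35 and 5.22 in wild-type arrays, and Ifrd1 null 1 was the low array, as it was for Tek.

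Genes of Notch, apelin and sprouting had 10 of 13 with a negative difference (11 with each of the 3 other scalings), a median of -0.18 and 7 whose null arrays lay below both wild-type arrays, where all genes gave 19.7% and genes above the median level 29.1%. Without Ifrd1 null 2 the median was -0.08. Of the 7, Dll4, Apln and Esm1 were below the median of every array, where signal above background is not shown. Apln also had the same value on both wild-type arrays. Jag1, a Notch ligand that duct and vessel cells both make, was at 6.71 and 6.62 in null arrays, against 7.06 and 7.21 in wild-type arrays, a difference of -0.48 ± 0.12 (SE; limma adjusted p = 0.721). Aplnr, the apelin receptor of sprouting endothelium, was at 4.77 and 4.74 in null arrays, against 5.20 and 5.02 in wild-type arrays. At unadjusted p under 0.05 these were the 2 genes of the 13 (3.63% of all genes and 5.41% of genes above the median level were lower at that p), and 0 passed limma over all genes.

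**Figure D2:**
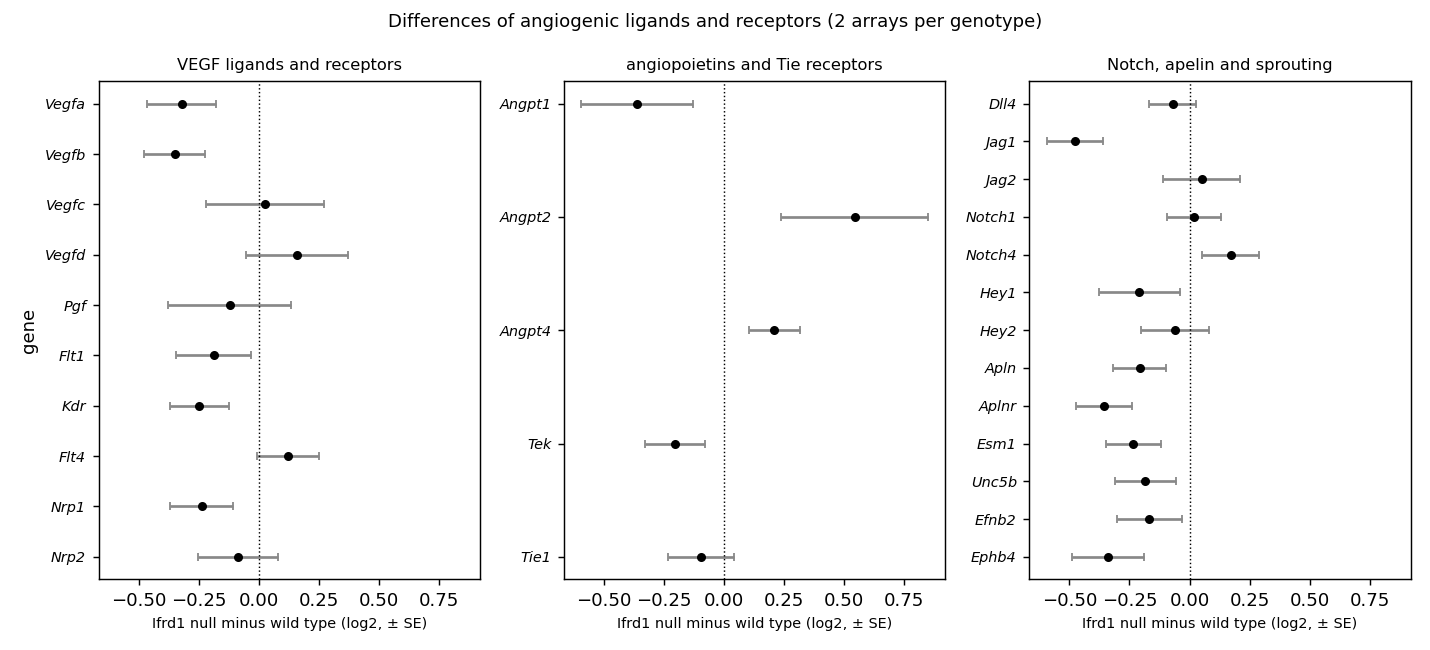
Difference between Ifrd1 null and wild type on the horizontal axis (log2, point with moderated SE, 2 arrays per genotype) for the genes of 3 lists, 1 gene per row. Vegfa, Vegfb, Kdr and Nrp1 lie left of 0 by more than 1 SE, Angpt2 lies at 0.54 with an SE of 0.30, and 0 of the genes shown passed limma over all genes.

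The junction genes of endothelium had smaller differences. Pecam1, a homophilic adhesion molecule that platelets and leukocytes carry too, was at 6.35 and 6.31 in the null arrays, against 6.45 and 6.38 in the wild-type arrays. The groups were apart by 0.02, less than the 0.07 between wild-type arrays. The difference was -0.08 ± 0.10 (SE, limma adjusted p = 0.847), with a 95% interval of -0.36 to 0.19. It was -0.03 with quantile normalization and -0.02 with cyclic loess.

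Cdh5, which encodes VE-cadherin, the adherens junction protein specific to endothelium, was at 7.38 and 7.02 in the null arrays, against 7.36 and 7.15 in the wild-type arrays. The groups overlapped, with the null arrays holding both the highest and the lowest value. The difference was -0.05 ± 0.17 (SE; limma adjusted p = 0.946), and it was above 0 with quantile normalization (0.03) and with cyclic loess (0.04). The 95% interval ran from -0.51 to 0.41. Against the wild-type mean, Plvap was thus at -0.76 and -0.45 on Ifrd1 null 1 and 2, while Pecam1 was at -0.06 and -0.11 and Cdh5 at 0.13 and -0.23 on the same arrays.

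Esam, an immunoglobulin-family molecule of endothelial tight junctions, was at 4.81 and 4.80 in the null arrays, against 4.86 and 5.09 in the wild-type arrays. The groups were 0.05 apart, and most of the difference of -0.17 ± 0.13 (SE; limma adjusted p = 0.781) came from wild type 2, without which it was -0.05. Cldn5, the tight junction claudin of endothelium, was at 3.92 and 3.92 in the null arrays, against 3.92 and 3.78 in the wild-type arrays. It was the only one of the 10 below the median of every array, and 3 of its 4 values were identical to the last deposited digit. Its difference, 0.07 ± 0.11 (SE; limma adjusted p = 0.873; -0.0034 with cyclic loess), therefore says little about the level of Cldn5 RNA.

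Further junction genes, most of which epithelia express too, were also on the negative side. All 8 further members of the junction list had a negative difference, also with quantile normalization, median centring and cyclic loess, with a median of -0.23, and 5 of them had null arrays below both wild-type arrays, where all genes gave 19.7% and genes above the median level 29.1%. F11r, the junctional adhesion molecule A of epithelium and endothelium, was at 9.11 and 8.59 in null arrays, against 9.18 and 9.38 in wild-type arrays. Jam2, a relative found on venules and lymphatic vessels, was at 5.81 and 5.55 in null arrays, against 6.06 and 6.01 in wild-type arrays. Afdn, the scaffold afadin that links nectins to actin, was at 7.32 and 7.08 in null arrays, against 7.43 and 7.63 in wild-type arrays. Of the 8, 1 had an unadjusted p under 0.05 (Jam2), beside 3.63% of all genes and 5.41% of genes above the median level lower at that p, and 0 passed limma over all genes. The part of epithelial cells in these values was not tested.

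**Figure D3:**
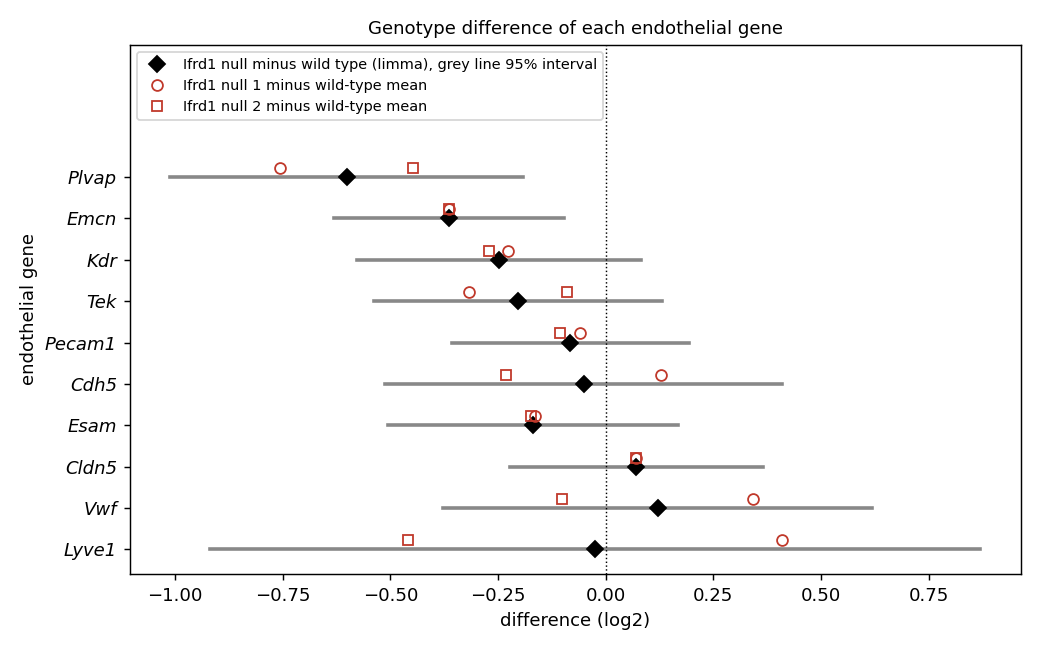
Difference between Ifrd1 null and wild type (log2, horizontal axis) for the 10 endothelial genes, as limma estimate (black diamond) with 95% interval (grey line), and each null array minus the wild-type mean (red circle, Ifrd1 null 1; red square, Ifrd1 null 2). The intervals of Plvap and Emcn exclude 0 before adjustment, and the 2 null arrays fall on opposite sides of 0 for Cdh5, Vwf and Lyve1.

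Vwf, which encodes the von Willebrand factor that tethers platelets and is stored in endothelial granules, had the highest difference of the 10 and overlapping groups. It was at 5.70 and 5.26 in the null arrays, against 5.28 and 5.43 in the wild-type arrays. Ifrd1 null 1 was the high array and the other 3 lay between 5.26 and 5.43. The difference was 0.12 ± 0.19 (SE; limma adjusted p = 0.873), and without Ifrd1 null 1 it was -0.10. Megakaryocytes make this factor as well. Of 9 platelet markers 6 were measured, with list means of 4.54 and 4.45 in null and 4.60 and 4.50 in wild-type arrays. Pf4, a platelet chemokine that macrophages can express too, was at 6.50 and 5.56 in null arrays, against 6.34 and 6.09 in wild-type arrays. Ppbp, a platelet chemokine, was at 3.91 and 3.99 in null arrays, against 5.22 and 4.24 in wild-type arrays, and Gp9, a subunit of the receptor for Vwf, at 5.28 and 5.55 against 5.14 and 4.83. The part of platelets in the Vwf values was not tested.

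Leukocyte adhesion molecules, which inflamed endothelium displays, had a mixed picture. Of 12 adhesion and activation genes, Vwf among them, 7 had a negative difference (6 with quantile normalization and cyclic loess, 8 with median centring). The null arrays lay below both wild-type arrays for 4 and above both for 2. All genes gave 19.7% and 16.1%, and genes above the median level 29.1% and 8.82%. Vcam1, which binds lymphocytes and monocytes, spanned the null group widely, at 7.25 and 6.07 in null arrays, against 6.68 and 6.67 in wild-type arrays. Procr, the endothelial protein C receptor, was at 6.17 and 6.14 in null arrays, against 6.45 and 6.65 in wild-type arrays, a difference of -0.40 ± 0.12 (SE; limma adjusted p = 0.721). Edn1, the vasoconstrictor endothelin 1, was at 5.01 and 4.47 in null arrays, against 5.29 and 5.24 in wild-type arrays. Sele, the endothelial selectin induced by inflammation, was below the median of every array. It was at 3.04 and 3.32 in null arrays, against 2.85 and 2.97 in wild-type arrays. Madcam1 was at 5.08 and 5.02 in null arrays, against 4.80 and 4.82 in wild-type arrays. For Icam1 and Selp the groups overlapped, with differences of 0.005 and -0.03. Sele, Madcam1, Icam1 and Selp were named after their values were seen.

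Lyve1, the hyaluronan receptor of lymphatic endothelium and of a subset of tissue macrophages, did not separate the genotypes. It was at 8.29 and 7.43 in the null arrays, against 7.69 and 8.08 in the wild-type arrays. Ifrd1 null 1 held the highest value and Ifrd1 null 2 the lowest, 0.87 apart, the widest spread of the 10. The difference was -0.02 ± 0.33 (SE; limma adjusted p = 0.990; 0.05 with quantile normalization and 0.07 with cyclic loess), and it was 0.41 without Ifrd1 null 2 and -0.46 without Ifrd1 null 1. The 95% interval, -0.92 to 0.87, holds differences of close to 2-fold in either direction.

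Other lymphatic genes were mixed. Of 11 measured besides Lyve1, 6 had a negative difference, and 7 with each of the 3 other scalings. The added gene was Reln, which had the same deposited value on every array. Flt4, Reln, Mmrn1 and Stab2 had the same value on both null arrays, so their gaps cannot be read. Prox1, the master transcription factor of lymphatic endothelium, also expressed in pancreatic epithelium (named after its values were seen), was at 5.81 and 5.76 in null arrays, against 6.09 and 5.65 in wild-type arrays. Pdpn, podoplanin of lymphatic endothelium and fibroblasts, was at 7.14 and 6.84 in null arrays, against 7.14 and 7.43 in wild-type arrays. Foxc2, a factor of lymphatic valves, was at 4.04 and 4.02 in null arrays, against 3.70 and 3.64 in wild-type arrays, below the median of every array. Stab1, a scavenger receptor of sinusoidal and lymphatic endothelium and of macrophages, was at 8.40 and 7.61 in null arrays, against 8.07 and 8.32 in wild-type arrays, with a gap between the null arrays close to that of Lyve1 and the same order of arrays.

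Macrophage markers took the same side as Lyve1 on the null arrays. All 13 markers were measured, and all 13 were higher in Ifrd1 null 1 than in Ifrd1 null 2, with a median gap of 0.65. Over all genes that held for 10175 of 22180. Fibroblast (9 of 9), adipocyte (7 of 7) and mural (13 of 14) genes had the same order, and acinar markers (0 of 10) did not. The macrophage list means were 8.39 and 7.75 in null arrays, against 8.07 and 8.19 in wild-type arrays. Cd163, a scavenger receptor of resident macrophages that often carry Lyve1 (named after its values were seen), was at 7.28 and 6.44 in null arrays, against 6.46 and 6.90 in wild-type arrays. Lyz2, the lysozyme of myeloid cells, was at 10.5 and 9.68 in null arrays, against 10.3 and 10.6 in wild-type arrays. Timd4, another resident macrophage receptor, was at 5.20 and 4.17 in null arrays, against 3.96 and 4.26 in wild-type arrays. Csf1r, the receptor for macrophage colony-stimulating factor, was at 8.88 and 8.28 in null arrays, against 8.84 and 8.94 in wild-type arrays. The part of macrophages in the Lyve1 values was not tested.

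A wider list of blood vessel genes lay mostly on the same side as Plvap, Emcn and Kdr. Of 22 measured genes (24 listed), none of them among the 10, 18 had a negative difference, also with quantile normalization and cyclic loess (19 with median centring), with a median of -0.16. The null arrays lay below both wild-type arrays for 10 of the 22, and above both for 1, where all genes gave 19.7% and 16.1%, and genes above the median level 29.1% and 8.82%. Without Ifrd1 null 1 the median was -0.27. Adgrl4, an adhesion receptor of angiogenic endothelium, was at 4.81 and 4.78 in null arrays, against 5.23 and 5.25 in wild-type arrays, a difference of -0.44 ± 0.10 (SE; limma adjusted p = 0.721). Clec14a, a lectin-like protein of endothelium, was at 4.45 and 4.45 in null arrays, against 4.86 and 4.75 in wild-type arrays. Cd34, a sialomucin of endothelium and of some stromal cells, was at 7.95 and 7.83 in null arrays, against 8.21 and 8.11 in wild-type arrays. Of the 22 genes, 4 had an unadjusted p under 0.05, all lower, beside 3.63% of all genes and 5.41% of genes above the median level, and 0 passed limma over all genes. Among those 4, Adgrf5 had the same value on both wild-type arrays. Clec14a, another of them, was above the array median on only 2 arrays.

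Transcription factors of the endothelial lineage stood closer to 0. Of 15, 11 had a negative difference, but 6 with cyclic loess and 9 with quantile normalization, and the median of -0.06 became 0.01 with cyclic loess and 0.13 without Ifrd1 null 2. For 13 of the 15 the groups overlapped (64.2% of all genes). Fli1, an ETS factor of endothelium and blood cells, was at 7.88 and 7.48 in null arrays, against 7.70 and 7.81 in wild-type arrays. Klf4, induced by flow and also expressed in epithelium, was at 5.81 and 5.55 in null arrays, against 6.20 and 5.89 in wild-type arrays. Sox7 was at 4.69 and 4.71 in null arrays, against 4.37 and 4.64 in wild-type arrays.

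Mural cells, the pericytes and smooth muscle that wrap vessels, had a median of -0.22 over 14 genes, 11 of them with a negative difference (10 with quantile normalization and cyclic loess). Rgs5, a pericyte regulator of G protein signalling, was at 8.54 and 8.42 in null arrays, against 8.91 and 8.72 in wild-type arrays, a difference of -0.34 ± 0.12 (SE; limma adjusted p = 0.721). Pdgfrb, the receptor that recruits pericytes, was at 7.11 and 6.89 in null arrays, against 7.37 and 7.29 in wild-type arrays. The null arrays lay below wild type for both genes. Over the 14, that held for 4 and the opposite for 2. All genes gave 19.7% and 16.1%, and genes above the median level 29.1% and 8.82%. Against the wild-type mean, however, the list median was -0.01 in Ifrd1 null 1 and -0.42 in Ifrd1 null 2, and without wild type 1 it was -0.06.

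The 2 null arrays differed in cell type markers in general. The 10 endothelial genes followed that split only in part, and other endothelial lists differed in how far they did. Against the wild-type mean, on Ifrd1 null 1 and Ifrd1 null 2, macrophage markers had medians of 0.21 and -0.39, stellate cell and fibroblast markers 0.26 and -0.40 (9 of 10 measured), adipocyte markers 0.60 and -0.37 (7 of 8) and acinar markers -0.33 and 0.16. The 10 endothelial genes had medians of -0.11 and -0.20, and the wider blood vessel list -0.15 and -0.27. Genes above the median level gave -0.07 on both. Without members of the 10, the junction, VEGF and Notch lists also lay below 0 on both arrays. Endothelial transcription factors had 0.13 and -0.08, activation genes 0.07 and -0.17, capillary genes 0.05 and -0.14, and lymphatic genes 0.08 and -0.10. The 4 angiopoietin and Tie genes besides Tek, at 0.11 and 0.08, lay above 0 on both. Only 1 of these 4 was above the median level, and with Tek the list of 5 had 0.03 and -0.06. Of the 10, 7 were higher in Ifrd1 null 1 than in Ifrd1 null 2, by a median of 0.03, as were 9 of 9 fibroblast and 7 of 7 adipocyte markers, by medians of 0.55 and 1.22. So were 17 of 22 genes of the wider blood vessel list and 13 of 14 mural genes, by medians of 0.17 and 0.42. Over all genes 10175 of 22180 were higher in Ifrd1 null 1, and 5538 of 11090 above the median level. Plvap ran the other way, 0.31 lower in Ifrd1 null 1, and so did Tek, 0.23 lower. List means of fibroblast markers were 9.53 and 8.94 in null and 9.39 and 9.29 in wild-type arrays, and those of adipocyte markers 6.36 and 5.36 against 5.64 and 6.01. The part of these cell types in the endothelial values was not tested.

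**Figure D4:**
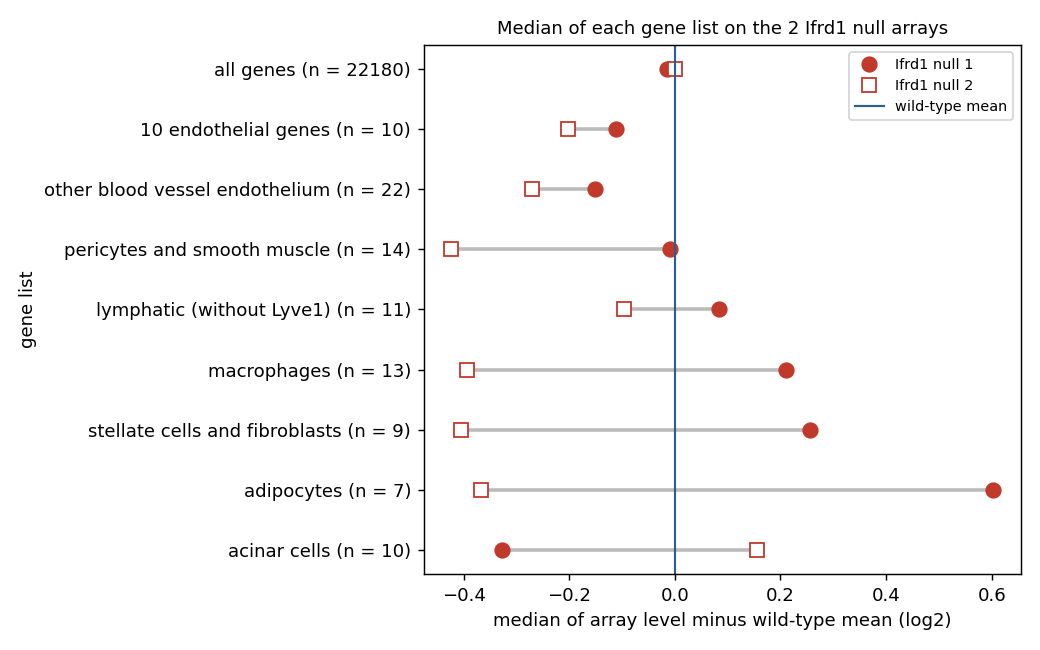
Median over each gene list of the array level minus the wild-type mean (log2, horizontal axis) for Ifrd1 null 1 (filled circle) and Ifrd1 null 2 (open square), with the wild-type mean at 0 and the number of measured genes in brackets. The 10 endothelial genes, the wider blood vessel list and the mural list (-0.01 on Ifrd1 null 1) lie left of 0 on both null arrays. Genes above the median level, which are not drawn, had -0.07 on both. Lymphatic, macrophage, fibroblast, adipocyte and acinar lists lie on opposite sides of 0.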

How the data were processed

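Per the labels' protocols, biotin-labelled total RNA was run on Affymetrix arrays. The deposited table holds 1 value for each transcript cluster on each array, used as a log2 level; the log base was read from their range (0.218 to 13.9), and the background correction, summary and normalization methods are not given in the sources used here. Of 41345 rows, 23521 had 1 gene symbol in the platform annotation, 1814 had several and 16010 had none there; rows with 1 symbol gave 22180 genes. No filter on dim rows was applied.

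Genotypes were compared with limma 3.58.1 (lmFit, eBayes) in R 4.3.3 without covariates, two-sided, as Ifrd1 null minus wild type, adjusted over all genes by Benjamini-Hochberg (threshold 0.05). The test was tested on simulated data. With 2 arrays against 2, an exact permutation test cannot go below p = 0.333, so none is given. The number of arrays limits the precision.

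Members and lists were chosen with earlier results of these data known; 186 of 205 list entries were measured, 1 through a synonym. A fixed rule took from each list the brightest member and the 2 of smallest unadjusted p; it was followed for the vessel, platelet and macrophage lists, while the acinar, fibroblast, adipocyte and red blood cell lists are given, if at all, as lists. Other genes are said to be named after their values were seen. Promoter sequences are RefSeq's. Alternatives were quantile normalization, median centring, cyclic loess, a replicate block, a filter on dim genes, the mean of a gene's rows, eBayes with trend and robust, and each array left out.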

Additional observations from a re-analysis of the deposited data

How the results depend on the processing

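None of the 10 endothelial genes passed the adjusted threshold under any alternative (limma adjusted p from 0.473 to 1). Over all genes, 1 passed, the Y-linked Uty, against 4 with quantile normalization, with cyclic loess and with the replicate block, 5 with median centring, with eBayes set to trend and robust, and with genes of identical values left out (chosen after seeing the data), and 0 among genes above the median level; leaving out 1 array gave 0 in each case. The cause was not tested. The number of the 10 with a negative difference ran from 6 to 9. Their median was -0.175 with median centring, which moves the median of all genes to -0.06, and -0.21 to -0.11 with 1 array left out. Signs turned for Cdh5 (0.0345 with quantile normalization, 0.0355 with cyclic loess, -0.23 to 0.13 with 1 array left out), Lyve1 (0.0533, 0.0689 and -0.46 to 0.41), Cldn5 (-0.0034 with cyclic loess) and Vwf (-0.10 to 0.34 with 1 array left out). The labels tie replicate numbers to no shared litter or day, and deviations of same-numbered arrays from their group means correlated at -0.04 across genes; with the replicate block, 1 of the 10 had an unadjusted p under 0.05, against 2 without it.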

Other observations

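Of 22180 genes, 3124 held the same value, to the last deposited digit, on at least 2 of the 4 arrays. Among the vessel genes listed here, Cldn5, Flt4 (the receptor of Vegfc), Tal1 and Cav2 each had 3 identical values of 4. Reln, a secreted protein of lymphatic vessels, was at 4.06 on all 4 arrays. Others had a value shared by 2 arrays, such as Adgrf5, Mmrn1, Stab2, Apln and F3. Leaving such genes out kept 9 of the 10 endothelial genes in the test, with a median of -0.17 and 8 with a negative difference.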
